A study of Homo sapiens with 6 samples.

Results

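Mitotic spindle and G2/M genes were examined in AGS cells, a human gastric adenocarcinoma cell line, in which CTNNB1, encoding beta-catenin, had been silenced by siRNA. The set held 47 genes chosen by name for their roles in mitosis, with earlier results of these data known. Of them, 46 had a measured row among the 18417 genes tested. The expression of CENPA is not analysed here. Each gene was represented by the transcript cluster, the set of probes for one gene locus, with the highest mean over the arrays. BIRC5 was the 1 gene with a second cluster. The groups differed by the siRNA: 3 arrays came from cells given a non-targeting control siRNA and 3 from cells given CTNNB1 siRNA, all lysed 48 h after transfection, with 500 ng of total RNA labelled per array. The labels call the replicates biological without saying what set them apart, such as a passage or a day. All values are log2 expression from Affymetrix Human Gene 1.0 ST arrays, differences are CTNNB1 siRNA minus control siRNA, and levels are compared within a gene and never between genes.

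Entry into mitosis is driven by CDK1 bound to cyclins A2, B1 and B2, after CDC25 phosphatases remove the phosphates that WEE1 and PKMYT1 place on CDK1. Aurora and Polo-like kinases, kinesin motors and microtubule-associated proteins then build the spindle, and the spindle checkpoint holds the anaphase-promoting complex (APC/C) inactive until the chromosomes are attached. Activation of the APC/C by CDC20 degrades securin and cyclin B, which releases separase and ends mitosis. Most of these genes are transcribed late in the cell cycle under the control of the MuvB complex with B-MYB and FOXM1, often through a promoter element called the cell cycle genes homology region (CHR) that lies near CCAAT boxes bound by NF-Y. In a culture of asynchronous cells, fewer cells in G2 or mitosis and less RNA per such cell cannot be told apart.

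Promoter stretches of 6 of the genes are shown to make this shared architecture visible. They cover the 120 bases before the gene start in RefSeq on GRCh38.p14 and are written 5′ to 3′ on the strand of the gene, with matches to the CHR letters TTTGAA or TTCGAA and to CCAAT, on either strand, in capitals. CDCA8, KIF11 and PLK1 are shown because they were among the 4 members with the smallest p. CCNB1 and CCNB2 are a pair of cyclin B genes, of which CCNB2 has a match to these CHR letters and CCNB1 has none. CDK1 is the kinase they activate.
CDCA8 (chr1:37692396-37692515, plus strand): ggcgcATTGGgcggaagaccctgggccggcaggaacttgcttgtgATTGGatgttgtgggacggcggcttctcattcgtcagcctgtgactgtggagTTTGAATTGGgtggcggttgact
KIF11 (chr10:92593010-92593129, plus strand): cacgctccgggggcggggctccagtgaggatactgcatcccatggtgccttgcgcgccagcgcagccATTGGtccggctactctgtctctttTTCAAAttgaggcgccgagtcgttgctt
PLK1 (chr16:23678769-23678888, plus strand): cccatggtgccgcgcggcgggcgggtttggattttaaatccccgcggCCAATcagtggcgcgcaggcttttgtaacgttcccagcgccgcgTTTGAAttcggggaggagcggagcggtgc
CCNB2 (chr15:59105026-59105145, plus strand): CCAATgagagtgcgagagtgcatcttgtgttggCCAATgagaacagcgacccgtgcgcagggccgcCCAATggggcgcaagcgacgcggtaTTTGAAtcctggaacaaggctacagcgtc
CCNB1 (chr5:69167030-69167149, plus strand): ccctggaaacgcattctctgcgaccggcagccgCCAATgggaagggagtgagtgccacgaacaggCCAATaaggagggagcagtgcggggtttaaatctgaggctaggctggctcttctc
CDK1 (chr10:60778358-60778477, plus strand): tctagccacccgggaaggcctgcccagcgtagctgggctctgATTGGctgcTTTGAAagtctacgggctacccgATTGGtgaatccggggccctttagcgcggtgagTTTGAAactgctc

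The promoter table held 46 promoters for 39 of the 47 genes, each running from 250 bases before to 50 bases after a gene start. CENPA, whose expression is not analysed, is among these 39 genes. AURKA, BUB3, TTK, UBE2C, BIRC5, TPX2, RACGAP1 and FOXM1 had none there. A CHR match lay in 33 of the 46 promoters (71.7%), against 16.4% of all 35116 promoters of the same length. It was found in 36.2% of the promoters of other mitotic genes and in 2 of 52 promoters of G1/S and DNA replication genes. A CCAAT match lay in 36 of the 46 (78.3%), against 34.6% of all promoters, and 28 promoters (60.9%) held both, against 6.38%. CHR matches lay close to the start, with 21 of 45 in the last 50 bases before it, whereas 35 of 73 CCAAT matches lay between 100 and 51 bases before it. Where a gene has several starts, overlapping promoters can count the same site at different distances, as in PTTG1, AURKB and CDC25C. The TCF/LEF motif through which beta-catenin acts, searched as CTTTGAA or CTTTGAT on both strands, was in 1 of the 46 promoters (2.17%), that of CDK1 shown above, against 6.86% of all promoters. CTTTGAA contains the CHR letters TTTGAA, so the CDK1 matches count under both motifs. Such matches describe letters and do not show that a factor binds. The lack of a match to the letters searched does not show that the element is absent.

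**Figure D1:**
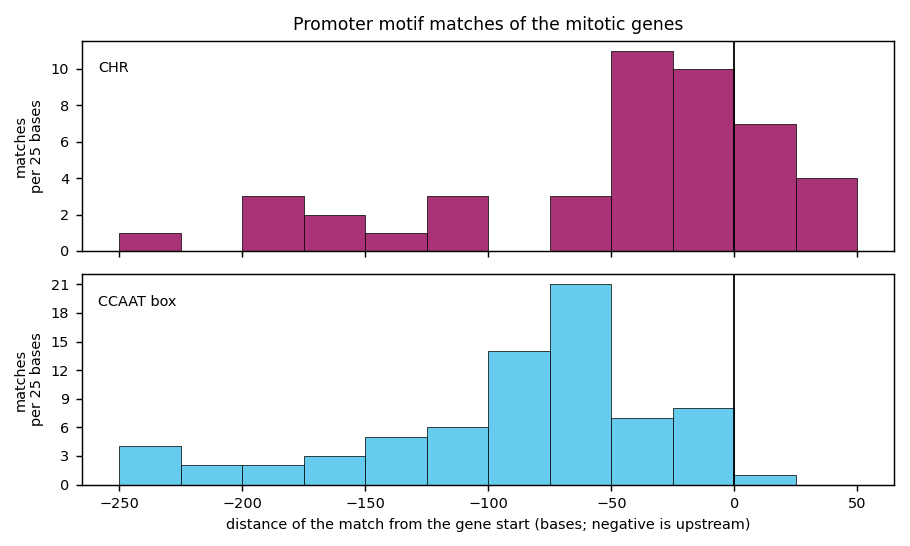
Number of motif matches (y axis) by distance from the gene start in bins of 25 bases (x axis, negative is upstream) in the 46 promoters of the mitotic genes, for the 45 CHR matches (top) and the 73 CCAAT matches (bottom). CHR matches gather in the last 50 bases before the start, and CCAAT matches mostly lie further upstream.

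CTNNB1 itself was lower on each silenced array, at 10.27, 10.78 and 10.58 for replicates 1 to 3 against 11.92, 11.76 and 11.75 in control cells. This difference of -1.27 (SE 0.17) did not pass the threshold of 0.05 over the 19460 clusters tested (limma adjusted p = 0.232). It passed with array weights (limma adjusted p = 0.0219), and over the other alternatives the adjusted p was 0.0520 to 0.937. The array that differed most from the rest was CTNNB1 siRNA replicate 1, with Pearson correlations across clusters of 0.962 to 0.965 against 0.983 to 0.988 among the other pairs, so differences that turn or shrink strongly without it are given with and without it. All 6 measured markers of epithelial cells lay above 5.362, the mean that bounds the dimmest 40% of clusters, as did 2 of 13 markers of fibroblasts, endothelium and immune cells, COL1A1 and CD68. The summed log2 level of the epithelial markers was 58.2 to 59.3 on the control siRNA arrays and 59.8 to 64.1 on the CTNNB1 siRNA arrays, and that of the other cell types was 57.0 to 58.6 and 59.0 to 60.7. Relative to the control mean, the epithelial markers averaged 0.93, 0.29 and 0.21 on CTNNB1 siRNA replicates 1 to 3. Their median difference was 0.50, and 0.24 without replicate 1. The part of these shifts in the differences below was not tested.

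No mitotic gene passed limma after CTNNB1 silencing (adjusted p = 0.816 to 0.992), in a comparison where 0.00514% of clusters were called. Of the 46 genes, 32 were lower and 14 higher, with a median difference of -0.099, while 50.8% of all clusters tested were lower and the median of all genes was -0.0052. At an unadjusted p under 0.05, 4 mitotic genes were lower and 0 higher, against 2.60% and 3.04% of clusters. They were FOXM1, CDCA8, KIF11 and PLK1. The number was 4, 2 and 1 when control replicate 1, 2 or 3 was dropped (1.77%, 2.26% and 1.72% of clusters lower) and 1, 10 and 3 when CTNNB1 siRNA replicate 1, 2 or 3 was (3.17%, 3.76% and 3.11%). FOXM1 was among them in 5 of these 6 fits, and TTK, CENPF, NDC80 and ASPM were the 4 without control replicate 1. The 10 without CTNNB1 siRNA replicate 2 were CDK1, PLK1, BUB1B, TTK, SGO1, CENPE, CDCA8, ASPM, TOP2A and FOXM1. No mitotic gene was higher at this p in these fits, against 1.80%, 2.39% and 2.23% of clusters without the control arrays in turn and 4.17%, 3.18% and 2.54% without the CTNNB1 siRNA arrays. The differences ran from -0.60 for CENPE, the lowest, to 0.41 for PTTG1, the highest, and every member lay above the limit of dim clusters, the lowest mean being 6.90 for CDC25C.

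For 6 genes each CTNNB1 siRNA array lay below each control array: FOXM1, CDCA8, KIF11, PLK1, MKI67 and BUB1B. These are 13.0% of the mitotic genes, against 6.80% of clusters, and the groups stood apart in the higher direction for 0 of the 46 against 6.81%. An exact permutation test of 3 arrays against 3 cannot give a 2-sided p below 0.1, so separation of the groups alone does not pass the threshold. Leaving out 1 array moved these counts. When control replicate 1, 2 or 3 was dropped in turn, 16, 6 and 6 mitotic genes lay apart in the lower direction (12.4%, 11.7% and 10.9% of clusters), and 0 in the higher direction each time (9.92%, 11.9% and 11.4%). When CTNNB1 siRNA replicate 1, 2 or 3 was dropped, 10, 16 and 6 lay apart lower (12.5%, 12.3% and 12.9%) and again 0 higher (13.2%, 11.9% and 10.3%). In the same order 39, 27 and 30 genes were lower (52.4%, 49.3% and 49.9% of clusters) and then 41, 33 and 27 (50.4%, 50.1% and 53.3%). The median difference was -0.25 when control replicate 1 was dropped and -0.053 when CTNNB1 siRNA replicate 3 was.

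**Figure D2:**
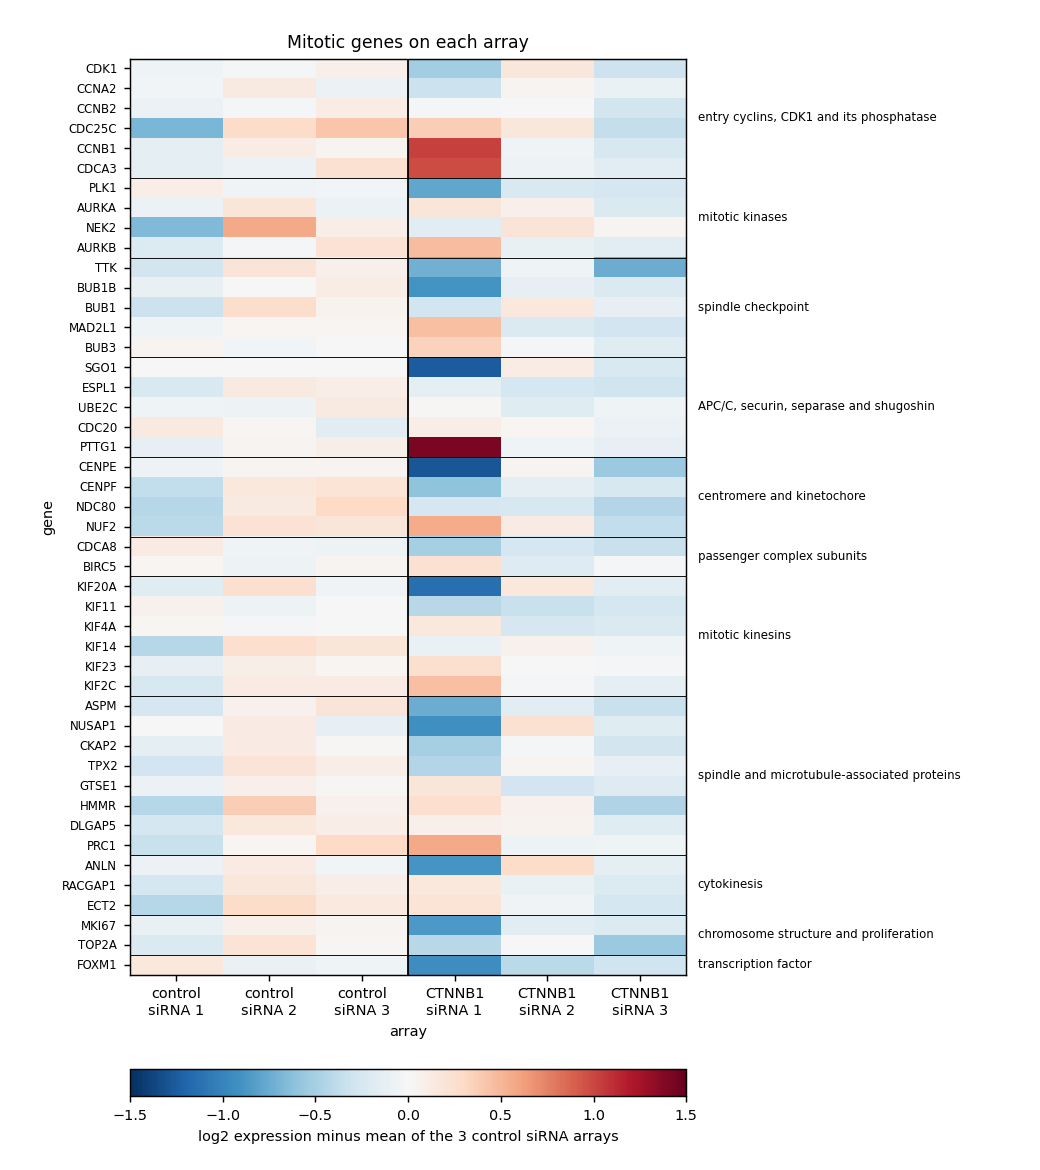
Log2 expression of the 46 mitotic genes (rows, grouped by role) on the 6 arrays (columns), as the difference from the mean of the 3 control siRNA arrays, with red higher and blue lower. CTNNB1 siRNA replicate 1 holds both the lowest value, -1.28 for CENPE, and the highest, 1.41 for PTTG1, and CTNNB1 siRNA replicate 3 is below the control mean for 45 of the 46 genes.

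FOXM1, a forkhead transcription factor that activates many G2/M genes, had the smallest p of the set. It stood at 9.50, 9.24 and 9.28 on the control arrays and 8.41, 8.94 and 9.04 on the CTNNB1 siRNA arrays. The groups did not overlap, and replicate 1 was the lowest array. The mean went from 9.34 ± 0.14 (SD, n = 3) to 8.80 ± 0.34 (SD, n = 3), 68.7% of the control level, a difference of -0.54 (SE 0.19, 95% interval -0.99 to -0.096). Without CTNNB1 siRNA replicate 1 the difference was -0.35, and FOXM1 was then the 1 mitotic gene left with an unadjusted limma p under 0.05.

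Among the genes of mitotic entry, 3 were lower and 3 higher, and none stood apart between the groups. All 6 were lower without CTNNB1 siRNA replicate 1. CDK1, the kinase of mitotic entry, was 9.28, 9.32 and 9.42 in control cells and 8.81, 9.52 and 9.03 after CTNNB1 siRNA. Its CTNNB1 siRNA arrays lay on both sides of the controls, and the difference of -0.22 (SE 0.19) was -0.068 without replicate 1. CCNB1, the cyclin B1 gene, was 8.96, 9.22 and 9.15 in control cells and 10.14, 9.05 and 8.86 after CTNNB1 siRNA. Replicate 1 was thus the highest array for CCNB1 and the lowest for its partner CDK1, and without it the CCNB1 difference went from 0.24 (SE 0.31) to -0.15. CDCA3, which helps to degrade the CDK1 inhibitor WEE1, followed CCNB1 with 7.32, 7.38 and 7.70 against 8.44, 7.40 and 7.30. Its difference was 0.24 (SE 0.30), and -0.12 without replicate 1. CCNB2 differed by -0.099 (SE 0.14), CCNA2 by -0.13 (SE 0.15, and -0.026 without replicate 1) and the phosphatase gene CDC25C by 0.061 (SE 0.32, and -0.093 without replicate 1). CDC25C also varied within the controls, from 6.18 on replicate 1 to 7.15 and 7.28 on the other two.

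Of the mitotic kinases, PLK1 was lower and AURKA, AURKB and NEK2 differed by no more than 0.060. PLK1, the Polo-like kinase of centrosome maturation and checkpoint recovery, was 10.87, 10.73 and 10.74 in control cells and 9.99, 10.55 and 10.52 after CTNNB1 siRNA. The groups were apart, and replicate 1 was the lowest array. The difference was -0.42 (SE 0.18), which left 74.7% of the control level, and it was -0.24 without CTNNB1 siRNA replicate 1. AURKA, the centrosomal Aurora kinase, was 9.86, 10.13 and 9.86 in control cells and 10.13, 10.03 and 9.73 after CTNNB1 siRNA, so the groups overlapped. The AURKA difference was 0.015 (95% interval -0.36 to 0.39), and -0.0695 without CTNNB1 siRNA replicate 1. AURKB, the Aurora kinase of the passenger complex, differed by 0.060 (SE 0.21), and by -0.14 without CTNNB1 siRNA replicate 1. NEK2, which separates the centrosomes, had the largest spread among control arrays, at 8.38, 9.61 and 9.14, and its difference was 0.021 (SE 0.29), or -0.31 without control replicate 1.

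In the spindle checkpoint 4 of 5 genes were lower, TTK and BUB1B by the most. TTK, the MPS1 kinase at the head of the checkpoint, was 7.89, 8.36 and 8.24 in control cells and 7.45, 8.10 and 7.42 after CTNNB1 siRNA. CTNNB1 siRNA replicate 2 reached into the control range, and the difference was -0.51 (SE 0.22). BUB1B, the BUBR1 pseudokinase that inhibits CDC20, was 9.26, 9.38 and 9.48 against 8.47, 9.25 and 9.15. All 3 CTNNB1 siRNA arrays were below the controls, replicate 2 barely so, and the difference of -0.41 (SE 0.22) was -0.17 without replicate 1. BUB1 differed by -0.076, BUB3 by 0.047 and MAD2L1 by -0.018, and without CTNNB1 siRNA replicate 1 by 0.023, -0.11 and -0.25. For MAD2L1, the MAD2 protein that captures CDC20, the near-zero difference joined a high replicate 1 (8.93) with a lower replicate 2 (8.27) and replicate 3 (8.19), all against 8.42 to 8.51 in control cells.

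Among the genes that act at the metaphase to anaphase transition, PTTG1 and SGO1 went in opposite directions on 1 array. PTTG1, encoding securin, was 7.41, 7.58 and 7.62 in control cells and 8.95, 7.48 and 7.42 after CTNNB1 siRNA, and SGO1, encoding shugoshin, which protects cohesin at the centromere, was 8.42, 8.43 and 8.42 against 7.17, 8.54 and 8.19. In both genes replicate 1 alone lay far from the other arrays, upward for PTTG1 and downward for SGO1. The PTTG1 difference of 0.41 (SE 0.38) was -0.090 without it, and the SGO1 difference of -0.46 (SE 0.32) was -0.059. ESPL1, encoding separase, differed by -0.23 (SE 0.15). The APC/C activator CDC20 differed by 0.012 (95% interval -0.32 to 0.34), or -0.033 without CTNNB1 siRNA replicate 1. UBE2C, the ubiquitin-conjugating enzyme of the APC/C, differed by -0.076 (95% interval -0.40 to 0.24).

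Of the 4 measured centromere and kinetochore genes 3 were lower. CENPE, a kinesin that moves chromosomes to the spindle equator, was 7.91, 8.04 and 8.03 in control cells and 6.71, 8.03 and 7.43 after CTNNB1 siRNA. Replicate 2 lay within the control range, so that the largest difference in the set, -0.60 (SE 0.30), rested on the other two arrays and was -0.26 without replicate 1. CENPF, an outer kinetochore protein gene, was 9.34, 9.87 and 9.92 against 9.10, 9.58 and 9.47, and its difference was -0.33 (SE 0.21). Here control replicate 1 lay within the CTNNB1 siRNA range, and the difference was -0.51 without it and -0.19 without CTNNB1 siRNA replicate 1. NDC80 and NUF2 encode the 2 subunits that form one microtubule-binding arm of the kinetochore. NDC80 differed by -0.31 (SE 0.20) and NUF2 by 0.10 (SE 0.27), and without CTNNB1 siRNA replicate 1 both were lower, by -0.34 and -0.13.

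CDCA8, encoding borealin of the chromosomal passenger complex, was 8.10, 7.94 and 7.91 in control cells and 7.48, 7.73 and 7.65 after CTNNB1 siRNA. The groups were apart with similar spread, 7.98 ± 0.11 (SD, n = 3) and 7.62 ± 0.13 (SD, n = 3), and the difference was -0.36 (SE 0.14). BIRC5, encoding survivin of the same complex, differed by 0.0088 (95% interval -0.34 to 0.36), or -0.10 without CTNNB1 siRNA replicate 1, and its second, dim cluster by 0.030.

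Among the kinesins KIF11 was the most even across arrays. KIF11, the Eg5 motor that pushes spindle poles apart, was 8.76, 8.61 and 8.70 in control cells and 8.28, 8.36 and 8.43 after CTNNB1 siRNA. The groups were apart, each with an SD of 0.074 (n = 3), and the difference of -0.33 (SE 0.13) stayed between -0.37 and -0.30 when any 1 array was left out. KIF20A, the MKLP2 motor of the midzone, was 9.36, 9.78 and 9.49 against 8.42, 9.70 and 9.38. Its difference of -0.38 (SE 0.31) was carried by replicate 1 and was -0.0034 without it. KIF4A differed by -0.11 (SE 0.15), and by -0.24 without that replicate. KIF14, KIF23 and KIF2C, which act in cytokinesis, in midzone assembly and in microtubule depolymerisation at centromeres, differed by -0.034, 0.069 and 0.094, and by 0.0020, -0.015 and -0.083 without that replicate.

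Of the 8 spindle and microtubule-associated protein genes 7 were lower, and the groups overlapped for each of them. ASPM, a spindle pole protein gene, was 8.73, 9.04 and 9.17 in control cells and 8.23, 8.81 and 8.64 after CTNNB1 siRNA, a difference of -0.41 (SE 0.20). CKAP2, which stabilises spindle microtubules, was 9.04, 9.30 and 9.19 against 8.68, 9.16 and 8.90, a difference of -0.26 (SE 0.17). In both genes the single overlap was between control replicate 1 and CTNNB1 siRNA replicate 2. Without CTNNB1 siRNA replicate 1 the differences were -0.25 for ASPM and -0.15 for CKAP2. NUSAP1, a microtubule-bundling protein gene, differed by -0.29 (SE 0.27), and by 0.023 without CTNNB1 siRNA replicate 1. TPX2, the activator of Aurora A, differed by -0.17, GTSE1 by -0.099, HMMR by -0.044 and DLGAP5 by -0.020, and without that replicate by -0.040, -0.24, -0.19 and -0.067. PRC1, which crosslinks midzone microtubules, was the higher one at 0.14 (SE 0.23), and -0.068 without that replicate.

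The cytokinesis genes ANLN, RACGAP1 and ECT2, which encode anillin and the regulators that switch on RhoA at the cell equator, differed by -0.25, -0.048 and -0.039. Without CTNNB1 siRNA replicate 1 the values were 0.069, -0.15 and -0.16. The proliferation marker MKI67, which coats mitotic chromosomes, was 10.38, 10.58 and 10.54 in control cells and 9.63, 10.34 and 10.30 after CTNNB1 siRNA. The groups were apart, with replicate 1 far below the other two, and the difference was -0.41 (SE 0.21), or -0.18 without replicate 1. TOP2A, the topoisomerase that untangles sister chromatids, was 10.47, 10.88 and 10.70 against 10.27, 10.68 and 10.12, a difference of -0.32 (SE 0.19) with CTNNB1 siRNA replicate 2 inside the control range.

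**Figure D3:**
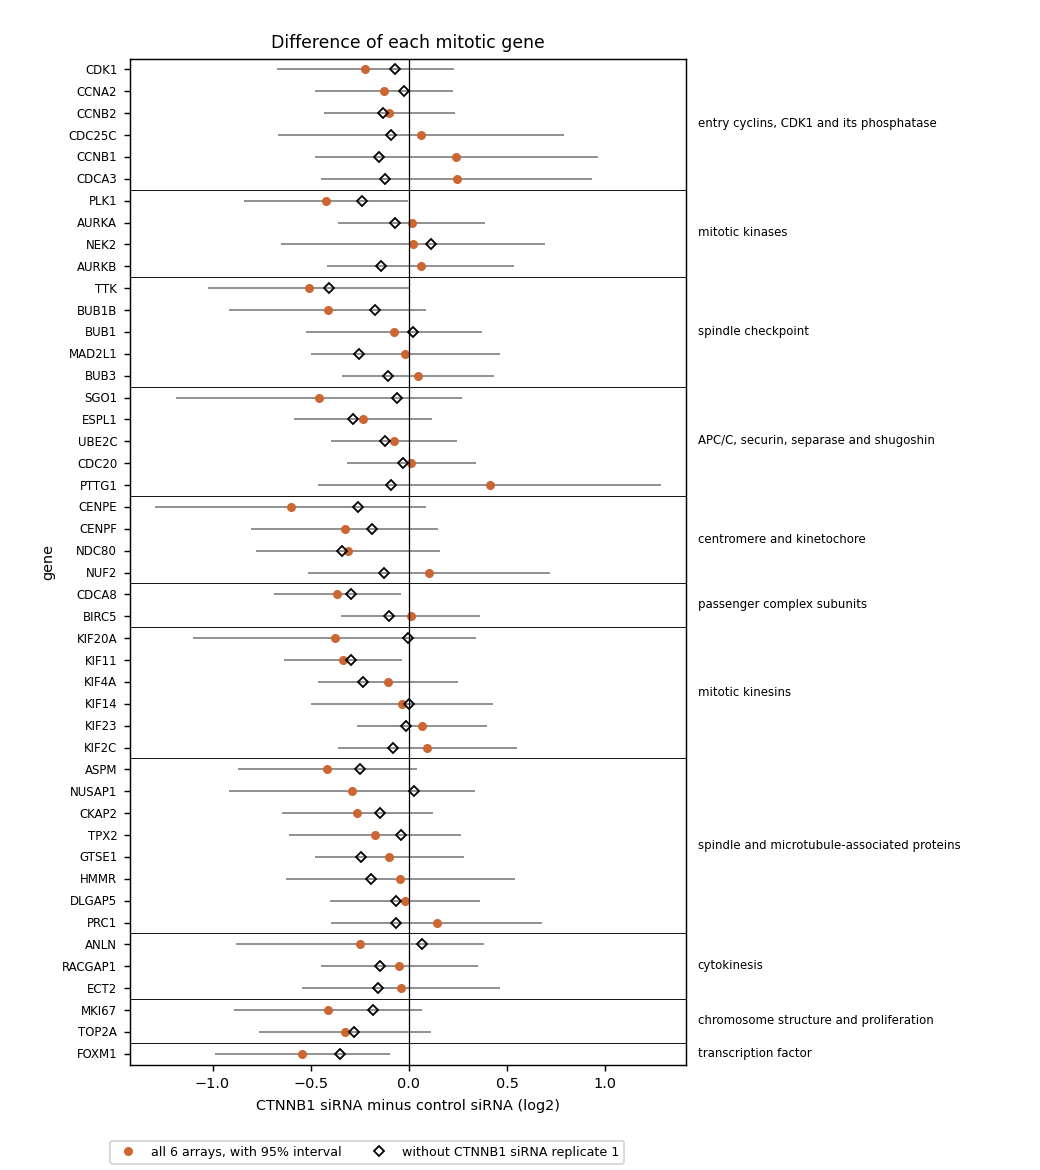
CTNNB1 siRNA minus control siRNA log2 difference (x axis) of the 46 mitotic genes (y axis, grouped by role), with all 6 arrays (filled circles, lines are 95% intervals from limma) and without CTNNB1 siRNA replicate 1 (open diamonds). The intervals of FOXM1, CDCA8, KIF11 and PLK1 lie below 0, and leaving out the replicate draws most genes toward small negative differences, 41 of 46 being lower.

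CTNNB1 siRNA replicate 1 scattered genes in general in both directions, the mitotic genes among them. Compared with replicates 2 and 3, it was above both for 22 mitotic genes (47.8%), by a median of 0.44, against 35.0% of all genes. It was below both for 20 (43.5%), by a median of -0.48, against a similar 45.7% of all genes. The genes at least 1 log2 unit away from the mean of the other two arrays, chosen after their values were seen, were PTTG1 (1.5), CCNB1 (1.18) and CDCA3 (1.1) above and SGO1 (-1.19), KIF20A (-1.12) and CENPE (-1.02) below. These 6 of 46 are a share similar to the 12% of all genes above the dim limit. Genes of one complex lay on opposite sides: in the passenger complex BIRC5 was 0.34 and AURKB 0.60 above, while CDCA8 was -0.21 from the other two arrays. The median SD of a mitotic gene was 0.281 over the CTNNB1 siRNA arrays and 0.145 over the controls, and for all genes above the dim limit it was 0.246 and 0.160.

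**Figure D4:**
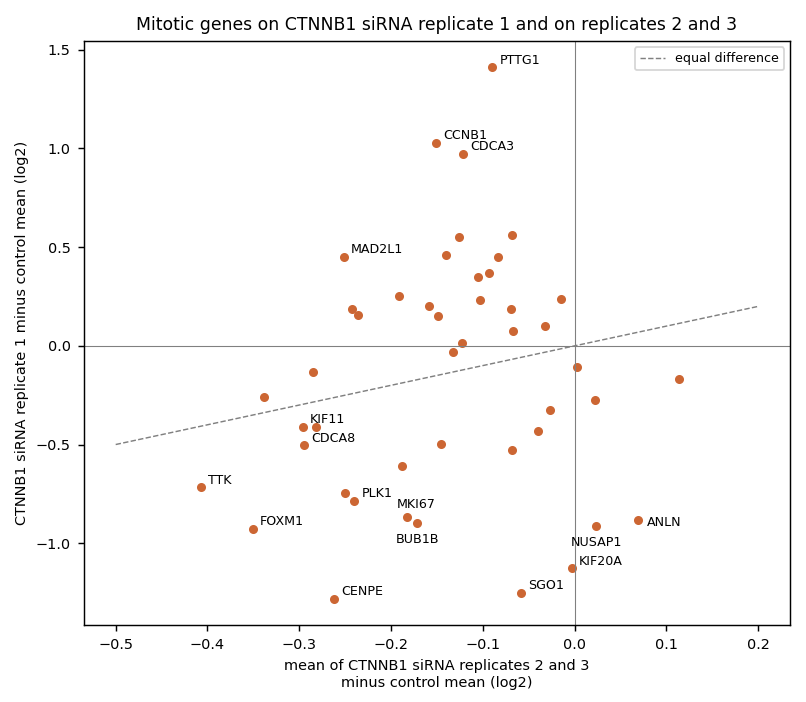
Each point is 1 of the 46 mitotic genes, with the mean of CTNNB1 siRNA replicates 2 and 3 minus the control mean on the x axis and CTNNB1 siRNA replicate 1 minus the control mean on the y axis, both in log2 units, and the dashed line marks equal differences. Replicate 1 ranges from -1.28 for CENPE to 1.41 for PTTG1, while replicates 2 and 3 range from -0.41 for TTK to 0.11 for NEK2.

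Replicates 2 and 3 of the CTNNB1 siRNA group scattered the mitotic genes less than replicate 1, but they were not alike. Replicate 2 was below the control mean for 28 of the 46 genes (mean -0.045) and replicate 3 for 45 (mean -0.23). Without replicate 1, 41 of 46 mitotic genes were lower, against 50.4% of clusters, with a median of -0.13, and 28 were below the control mean on both remaining arrays, against 33.6% of all genes. The 5 genes not lower were NEK2, ANLN, NUSAP1, BUB1 and KIF14, higher by 0.0020 to 0.11. None of the 46 passed limma in this fit (smallest adjusted p = 0.670), where 0.0514% of clusters were called, and 1 was lower and 0 higher at an unadjusted p under 0.05, against 3.17% and 4.17% of clusters.

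The control arrays also differed among themselves. Control siRNA replicate 1 was below both other controls for 35 of the 46 mitotic genes, against 38.9% of all genes, and 13 of the 46 (28.3%) had their lowest value of all 6 arrays there, against 20.1% of all genes. CTNNB1 siRNA replicate 1 held the lowest value of 17 (37.0%, against 31.4% of all genes). On control siRNA replicate 1, CDC25C was lowest relative to the control mean, at -0.69, and FOXM1 went the other way, at 0.16. The mean of the mitotic genes relative to the control mean was -0.17, 0.099 and 0.070 on the control arrays and -0.15, -0.045 and -0.23 on the CTNNB1 siRNA arrays, each in replicate order. The groups overlapped, and control replicate 1 lay below CTNNB1 siRNA replicates 1 and 2, so the difference of -0.14 between the group means was smaller than the range within the control group.

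**Figure D5:**
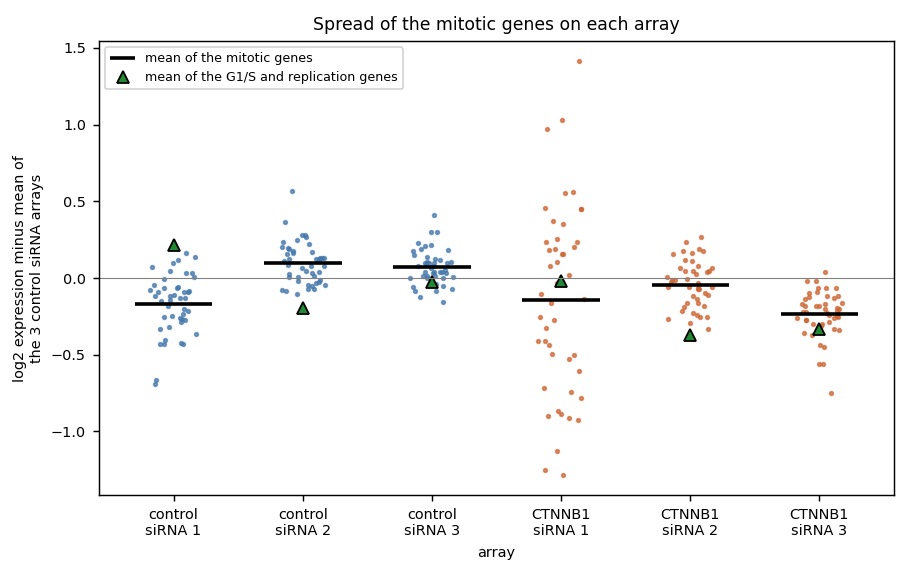
Log2 expression of the 46 mitotic genes (points) relative to the mean of the 3 control siRNA arrays (y axis) on each array (x axis), with the mean of the mitotic genes (black bars) and of the 48 measured G1/S and DNA replication genes (green triangles). The points spread widest on CTNNB1 siRNA replicate 1, and on control siRNA replicate 1 the mitotic mean is at -0.17 and the replication mean at 0.22.

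Other mitotic genes came from lists made for this comparison with earlier results of these data known. Their counts describe more of the pathway and are not independent support for those of the set. Of 140 measured genes in 6 lists, 104 were lower and 36 higher, with a median of -0.23, and 0 passed limma. At an unadjusted p under 0.05, 11 were lower and 1 higher, against 2.60% and 3.04% of clusters. Centromere, kinetochore and checkpoint genes had 29 of 36 lower (median -0.25), with SKA1 (-0.61, SE 0.22), CENPN (-0.72, SE 0.26) and SKA3 (-0.83, SE 0.31) having the smallest p. SKA1 and SKA3 belong to the complex that couples kinetochores to shortening microtubules. SKA3 stood at 9.10, 8.48 and 8.61 in control cells and 7.18, 8.32 and 8.19 after CTNNB1 siRNA, and its difference was -0.48 without CTNNB1 siRNA replicate 1. Passenger complex scaffold INCENP differed by 0.18 (SE 0.23), and by -0.088 without that replicate.

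Condensin and cohesin genes had 16 of 19 lower (median -0.26, and -0.16 without CTNNB1 siRNA replicate 3), led by SMC1A, a cohesin ring subunit gene, at 8.85, 8.84 and 8.80 against 8.33, 8.40 and 8.61, a difference of -0.38 (SE 0.14). CDCA5, encoding the cohesin stabiliser sororin, differed by -0.49 (SE 0.20) and the condensin subunit gene NCAPH by -0.45 (SE 0.23), and the latter was -0.18 without CTNNB1 siRNA replicate 1, while CDCA5 was -0.29 without control replicate 1. Other spindle, centrosome and cytokinesis genes had 28 of 41 lower (median -0.14, and -0.084 without CTNNB1 siRNA replicate 3), with the kinesin genes KIF15 (-0.75, SE 0.27), KIF18B (-0.54, SE 0.20) and KIF18A (-0.55, SE 0.21) first by p. KIF15 can share the pole-separating work of KIF11, and it was 7.28, 7.52 and 7.49 in control cells and 6.09, 7.25 and 6.69 after CTNNB1 siRNA. Without CTNNB1 siRNA replicate 1, KIF15 differed by -0.46, KIF18B by -0.32 and CENPN by -0.44. APC/C genes had 11 of 17 lower (median -0.18, and -0.11 without control replicate 1), among them the subunit genes ANAPC7 (-0.44, SE 0.20, and -0.27 without control replicate 1), CDC16 (-0.30, SE 0.14) and ANAPC1 (-0.33, SE 0.18, and -0.20 without control replicate 1).

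Regulators of CDK1 had 9 of 13 lower (median -0.13, and -0.30 without CTNNB1 siRNA replicate 2), and WEE1, the kinase that restrains CDK1, differed by 0.24 (SE 0.22), or 0.0087 without control siRNA replicate 1. BORA, the activator of Aurora A toward PLK1, differed by -0.36 (SE 0.18, and -0.22 without CTNNB1 siRNA replicate 3), ARPP19 by -0.28 (SE 0.15) and PKMYT1 by -0.25 (SE 0.14). Regulators of G2/M transcription had 11 of 14 lower (median -0.23). CDKN1A, the p21 inhibitor of cyclin-dependent kinases, was 7.57, 8.01 and 7.72 in control cells and 8.36, 8.26 and 7.99 after CTNNB1 siRNA, a difference of 0.44 (SE 0.17, limma adjusted p = 0.816) with one CTNNB1 siRNA array inside the control range. MYBL2, encoding B-MYB, differed by -0.17 (SE 0.14, and -0.10 without control replicate 1), the NF-Y subunit gene NFYC by -0.42 (SE 0.18) and the E2F partner gene TFDP1 by -0.49 (SE 0.26), which was -0.22 without CTNNB1 siRNA replicate 1. G1/S and DNA replication genes had 40 of 48 lower with a median of -0.25. Their smallest p were those of POLD3 (-0.53, SE 0.14), a DNA polymerase delta subunit gene, DTL (-0.75, SE 0.21), which directs destruction of the licensing factor CDT1, and ORC1 (-0.57, SE 0.20, and -0.35 without control replicate 1), of the origin recognition complex. The median of the replication list was -0.36 without CTNNB1 siRNA replicate 1 and -0.18 without control replicate 1. The groups stood apart lower for 13 of the 48 (27.1%, against 6.80% of clusters) and higher for 0 (against 6.81%). At an unadjusted limma p under 0.05, 9 were lower and 0 higher, against 2.60% and 3.04% of clusters. The difference between the replication and mitotic medians was not tested.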

How the data were processed

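Total RNA of AGS cells was measured on 6 arrays. The authors deposited 1 log2 value per array and transcript cluster. The submitters' processing notes name RMA and version 1.1 of Affymetrix Expression Console. RMA makes the arrays' intensity distributions alike and compresses differences of dim clusters. No genome build is named in the labels, and the log2 scale was read from the values, 0.92 to 14.3, with array medians of 5.38 to 5.46. The number of arrays limits the precision.

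The 19460 of 33297 clusters paired with exactly 1 gene symbol in the platform annotation were fitted with limma 3.58.1 (lmFit and eBayes, R 4.3.3), 2-sided, without filter, weights or block, with Benjamini-Hochberg adjustment and a threshold of 0.05. Symbols were updated by gene identifier through RefSeq for 19429 clusters. The fit was tested on simulated data of this design. It found 73.8% of changes of 1 log2 unit and 99.4% of those of 2, and 7.24% of its calls were false. The simulation gave every array the same spread, so it does not cover the wider scatter of CTNNB1 siRNA replicate 1. Alternatives left out each array or the dimmest 40% of clusters, used array weights or the replicate number as a block, renormalised the values, or averaged a gene's clusters. The members and lists were chosen with earlier results of these data known. Every member may be named, with array values for the 12 of smallest p and 7 fixed members, and other lists give their 3 genes of smallest p plus MYBL2, CDKN1A, INCENP and WEE1. Array values of other genes were chosen after they were seen.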

Additional observations from a re-analysis of the deposited data

How the results depend on the processing

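No mitotic gene was called under any alternative tried (smallest limma adjusted p = 0.506, with array weights). Over all clusters the limma call of 1 became 0 with the replicate block and 0 without the dimmest 40% of clusters, with 1123 and 670 clusters at an unadjusted p under 0.05, and 13 with array weights, CTNNB1 among them. Leaving out 1 array gave 0 to 10 calls, a median difference of the mitotic genes of -0.25 to -0.053 and 6 to 16 mitotic genes with separated groups. The median was -0.056 after a second quantile normalisation. The count of lower genes was 27 to 42 over all alternatives, and the mean difference stayed negative. Of the 46 genes, 23 changed sign when some array was left out. Of the 15 that differed by at least 0.3, 1 did so under any alternative: PTTG1. Same-numbered arrays of the 2 groups had correlated deviations from their group means (0.0922, 0.120 and 0.0980). Each array correlated best with its own number, and differently numbered arrays gave -0.101 to 0.0279. The same-number values were not all above 0.1, but each was above every value of differently numbered arrays. The labels state no covariate, and the main fit and the counts of separated groups did not take the numbers as pairs. Whether the numbers mark pairs was not tested. In a count of directions within same-numbered pairs, made apart from any fit, 15 mitotic genes were lower in all 3 pairs and 0 higher, against 16.8% and 14.8% of clusters. At an unadjusted limma p under 0.05 the fit with the replicate block kept FOXM1, lost CDCA8, KIF11 and PLK1 and gained TTK, ASPM and CENPE. All members lay above the dim limit, and the part of signal level in their spread was not tested.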

Other observations

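The mean of the G1/S and DNA replication genes and that of the mitotic genes were not ordered alike over the arrays. Relative to the control mean, the replication genes were at 0.22, -0.19 and -0.025 on the control arrays and at -0.022, -0.37 and -0.33 on the CTNNB1 siRNA arrays, in replicate order. On control siRNA replicate 1, where most mitotic genes were low, 9 of 48 replication genes lay below their control mean, and on control siRNA replicate 2 it was 44. The replication mean minus the mitotic mean was 0.39, -0.29 and -0.096 on the control arrays and 0.12, -0.32 and -0.098 on the CTNNB1 siRNA arrays, so arrays of the same replicate number gave similar values for replicates 2 and 3. Of the measured mitotic genes with a promoter entry, 23 of 29 with a CHR match were lower, with a median of -0.11, and 4 of 9 without a match were lower, with a median of 0.021. Without CTNNB1 siRNA replicate 1 the counts were 25 of 29 and 8 of 9, with medians of -0.16 and -0.090. The 9 without a match are AURKB, CCNA2, CCNB1, CENPE, CKAP2, KIF20A, KIF2C, NEK2 and PTTG1, and the difference between these groups was not tested.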
